A study of Rattus norvegicus with 6 samples.

Results

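The genes described here are 10 sensors of microbial or misplaced nucleic acids and lipids, and the proteins that pass their signal on: the Toll-like receptors Tlr2, Tlr3, Tlr4 and Tlr7, the adaptors Myd88, Ticam1, Mavs and Tmem173 (the protein STING), the kinase Tbk1 and the transcription factor Irf3. They were found in the RNA-seq count table by gene name, together with every transcript without an annotation (an unannotated row, which the table lists without a gene name) on the same strand that overlapped one of them. This gave 12 of the 43035 rows of the table: 9 annotated gene rows and 3 unannotated rows, while Ticam1 had no row of its name. The table comes from cardiomyocytes of newborn Sprague-Dawley rats, labelled as postnatal day 1, in primary culture. Of the 6 libraries, 3 came from cells given a scrambled siRNA (si-NC) and 3 from cells given an siRNA directed at the kinase DYRK1A (si-DYRK1A), each labelled as a biological replicate. Both groups received lipofectamine with a synthetic double-stranded RNA and were collected after 48 h, and no untransfected culture was among the libraries. The cultures were enriched for cardiomyocytes only by letting other cells attach first, and the number of animals behind each library is not given in the sources used here.

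Toll-like receptors bind microbial products at the cell surface (Tlr2, lipoproteins; Tlr4, lipopolysaccharide) or nucleic acids inside endosomes (Tlr3, double-stranded RNA; Tlr7, single-stranded RNA). Most of them signal through MyD88, whereas Tlr3 and one branch of Tlr4 use TRIF, the product of Ticam1. RNA in the cytosol is read by RIG-I and MDA5, which act through MAVS on mitochondria, and cytosolic DNA is read by cGAS, which acts through STING on the endoplasmic reticulum. TRIF, MAVS and STING converge on TBK1, which phosphorylates IRF3, and IRF3 switches on type I interferon and antiviral genes. In the heart these receptors are found on cardiomyocytes as well as on resident macrophages, fibroblasts and endothelial cells.

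Depth ranged from 10325074 to 11921772 counts per si-NC library and from 10703229 to 11723974 per library labelled si-DYRK1A. Between 17.2% and 17.5% of the counts lay in unannotated rows. Of 15513 rows with enough counts to test, 2360 (15.2%) passed an adjusted p of 0.05 in edgeR's quasi-likelihood test, and the first principal component, with 35.5% of the variance, separated the groups. The targeted gene could not be seen to fall: the Dyrk1a row held 3, 0 and 1 counts in si-NC and 2, 1 and 0 in the libraries labelled si-DYRK1A. An unannotated row with a protein kinase domain that spans it (chromosome 11, 34840290 to 34959417) held 777, 919 and 968 against 971, 851 and 944 counts (log2 fold change 0.08, SE 0.0575, adjusted p = 0.374 with edgeR). Every direction given here therefore rests on the labels. The study itself reports knockdown of the DYRK1A protein by immunoblot in such cultures, which is not a measure of these libraries. As to cell type, Nppa ranked 4 and Col1a1 ranked 1 among all rows by counts, so that RNA typical of cardiomyocytes and of fibroblasts was abundant in these cultures. The rows of Myh6, Myh7 and Tnni3 were at 0 in every library. An unannotated row that overlaps both Myh6 and Myh7 held at least 1257 counts per library, and one that overlaps Tnni3 held 178 to 243.

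Of the members, 4 were lower in the libraries labelled si-DYRK1A. Tmem173 fell the furthest, to 60.4% of its si-NC level, followed by Tlr4 at 70.6%, Tbk1 at 77.8% and Myd88 at 83.6%. These 4 of the 9 member rows tested make 44.4%, where 7.19% of all rows tested were called lower and 15.2% were called in either direction. Tbk1 accounts for 2 of the 9 rows. The members were chosen with earlier results of these data known, so that this share is a description only. Member rows called higher numbered 0 with edgeR, against 8.03% of all rows tested, and the count was also 0 at an unadjusted p under 0.05 and with DESeq2, limma-voom and limma on log2(FPKM + 1). The same 4 rows had each library labelled si-DYRK1A below each si-NC library, an ordering that 15.3% of all rows tested showed. The median log2 fold change was -0.26 over the 9 member rows and 0.002 over all rows. In bulk RNA, fewer cells of a type and less RNA per cell cannot be told apart, which holds for each of these values. The plot of levels by library shows each gene on its own scale.

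**Figure D1:**
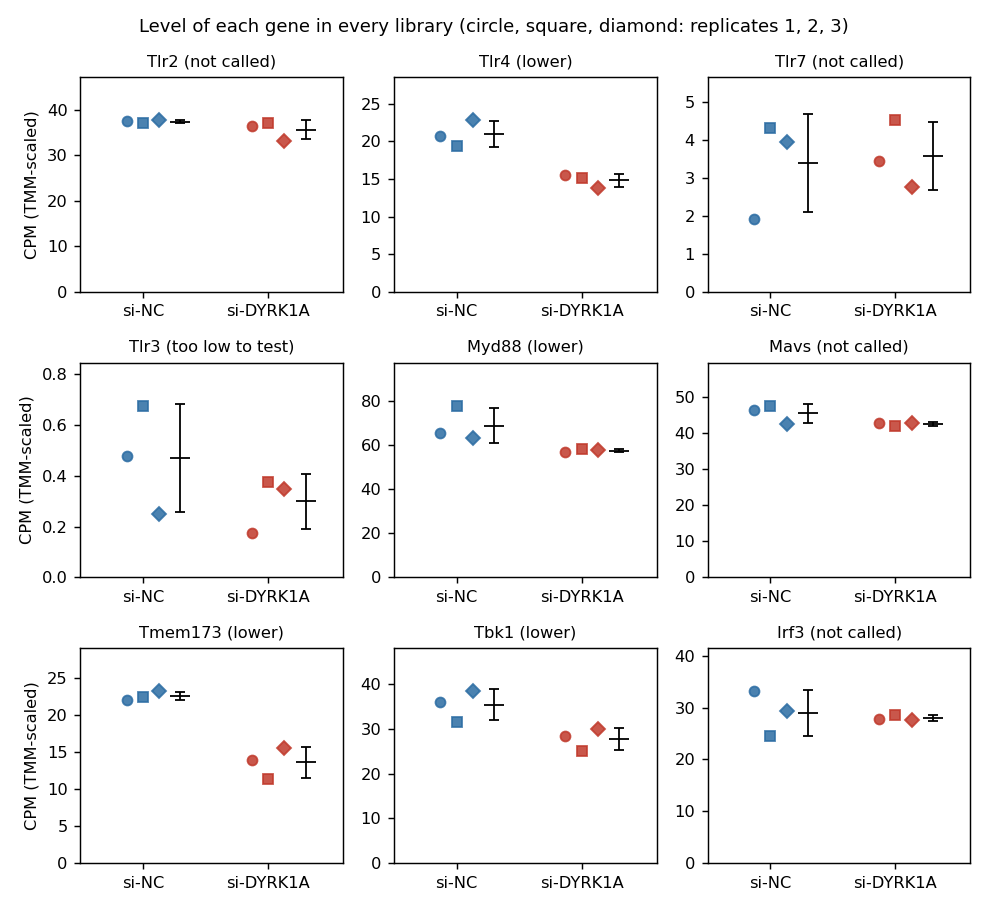
Level of 9 genes in each library, as CPM (the count scaled to the size of the library, with TMM factors), with each gene summed with the unannotated rows of its strand that overlap it; symbols mark the replicate number, and the bar beside them is the mean ± SD (n = 3). In Tlr4, Myd88, Tmem173 and Tbk1 all libraries labelled si-DYRK1A lie below all si-NC libraries, and in the other 5 genes the groups overlap.

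The promoters of the 4 genes called lower are shown to set them side by side, as the stretch from 250 bases before to 50 after the RefSeq gene start in the rat build GRCr8, read 5′ to 3′ on the strand of the gene. Of the 10 members, 9 had an entry in the promoter table used (Tmem173 under its current symbol Sting1), and Ticam1 was not among them. Capitals mark matches, on either strand, to any of the 5 short motifs named after the sequences.
Tmem173 (chr18:27612399-27612698, minus strand): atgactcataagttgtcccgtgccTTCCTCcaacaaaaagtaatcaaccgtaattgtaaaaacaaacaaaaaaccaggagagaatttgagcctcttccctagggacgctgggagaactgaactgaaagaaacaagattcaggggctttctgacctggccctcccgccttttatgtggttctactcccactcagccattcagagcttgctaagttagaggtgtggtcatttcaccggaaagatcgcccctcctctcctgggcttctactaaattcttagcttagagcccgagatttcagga
Tlr4 (chr5:85160997-85161296, plus strand): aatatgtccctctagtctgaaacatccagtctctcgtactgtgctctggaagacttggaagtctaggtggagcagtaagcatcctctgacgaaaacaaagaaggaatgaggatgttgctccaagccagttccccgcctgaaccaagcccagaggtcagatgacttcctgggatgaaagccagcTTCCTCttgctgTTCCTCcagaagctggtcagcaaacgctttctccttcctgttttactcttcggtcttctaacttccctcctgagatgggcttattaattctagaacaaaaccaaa
Tbk1 (chr7:58996308-58996607, minus strand): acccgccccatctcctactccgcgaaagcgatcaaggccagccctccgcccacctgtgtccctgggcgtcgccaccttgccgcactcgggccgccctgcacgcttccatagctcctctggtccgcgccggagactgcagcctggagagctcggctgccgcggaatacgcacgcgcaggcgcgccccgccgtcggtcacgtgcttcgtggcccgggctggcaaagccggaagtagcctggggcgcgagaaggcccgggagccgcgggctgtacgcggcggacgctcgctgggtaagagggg
Myd88 (chr8:127956181-127956480, minus strand): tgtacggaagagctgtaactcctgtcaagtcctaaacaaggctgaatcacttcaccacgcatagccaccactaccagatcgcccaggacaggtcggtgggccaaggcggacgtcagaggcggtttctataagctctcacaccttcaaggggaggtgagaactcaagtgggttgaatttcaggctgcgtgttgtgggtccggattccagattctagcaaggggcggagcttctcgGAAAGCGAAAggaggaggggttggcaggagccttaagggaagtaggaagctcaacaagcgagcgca

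The motifs searched were the core of the interferon-stimulated response element (GAAA, any 2 bases, GAAA), a kappa-B core bound by NF-kB (GGGA, any 4 bases, CC), the Egr1 core (GCG, any base, GGGCG), the ETS core bound by PU.1 (GAGGAA) and the palindrome CTCGCGAG. No 2 of these motifs overlapped in the matches below. The first of them was found in the Myd88 window alone among the 9, at bases 235 to 244 (GAAAGCGAAA), and in 3.92% of all 33469 rat promoters of the same length. GAGGAA was found on the opposite strand (TTCCTC) at bases 184 to 189 and 196 to 201 of the Tlr4 window and at bases 25 to 30 of the Tmem173 window, and 27.6% of all promoters hold it. It also occurred in the windows of Tlr3 and Tlr7. The kappa-B core, held by 19.3% of all promoters, matched the windows of Tlr2 and Irf3, which were not called. None of the 9 windows held the Egr1 core (4.98% of all promoters) or CTCGCGAG (0.723%), and the Tbk1 window held none of the 5. The windows also differed in composition. That of Tbk1 was 72.3% G and C with 39 CpG, that of Myd88 55% with 14 CpG, that of Tlr4 47.7% with 5 and that of Tmem173 46.7% with 7, against medians of 51.7% and 7 over all promoters. The 4 genes called lower thus had no motif of this small set in common.

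Among the surface receptors, Tlr4 fell and Tlr2 did not pass the test. Tlr4 (chromosome 5 of Rnor_6.0, 82587420 to 82601052, plus strand) held 216, 229 and 273 counts in si-NC libraries 1 to 3 and 176, 160 and 160 in those labelled si-DYRK1A. Each library labelled si-DYRK1A was below each si-NC library. The level was 21.0 ± 1.74 CPM against 14.8 ± 0.849 CPM (mean ± SD, n = 3 each), a log2 fold change of -0.50 (SE 0.106, 95% interval -0.72 to -0.28, adjusted p = 0.00215 with edgeR). Tlr2 (chromosome 2, 182840727 to 182846061, minus strand) held 390, 438 and 451 against 415, 394 and 383 counts. After scaling, its 3 si-NC libraries lay within 37.0 to 37.7 CPM, and 1 library labelled si-DYRK1A, replicate 2 at 37.1 CPM, lay among them. Its log2 fold change was -0.07 (SE 0.0776, 95% interval -0.23 to 0.09, adjusted p = 0.606 with edgeR), so that a loss as large as that of Tlr4 lay outside the interval.

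The endosomal receptors were close to the limit of what this depth can show. Tlr7 (chromosome X, 28486869 to 28512957, plus strand) held 20, 51 and 47 counts against 39, 48 and 32. Replicate 1 of si-NC was the lowest of all 6 and the groups overlapped throughout. With 3.39 ± 1.29 CPM against 3.57 ± 0.884 CPM (n = 3 each), its log2 fold change was 0.06 (SE 0.279, adjusted p = 0.921 with edgeR), and the 95% interval ran from 69.6% to 156% of the si-NC level. The sign itself turned when replicate 1 of si-NC was left out (-0.21) or replicate 2 of si-DYRK1A (-0.14). Tlr3, the endosomal receptor for double-stranded RNA, was nearly silent. Its row (chromosome 16, 50016857 to 50031214, plus strand) held 3, 0 and 3 counts against 0, 0 and 2. An unannotated row over 98.3% of the gene (50016496 to 50030975), annotated with leucine-rich repeats and a TIR domain, held 2, 8 and 0 counts against 2, 4 and 2. Summed, these came to 5, 8 and 3 counts against 2, 4 and 4, too few to test, and a difference in Tlr3 was not detectable at this depth.

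Of the adaptors, Tmem173 and Myd88 fell, Mavs did not pass the test, and Ticam1 could not be measured by name. Tmem173 (chromosome 18, 28529576 to 28535828, minus strand) held 230, 266 and 278 counts in si-NC against 158, 121 and 180 in those labelled si-DYRK1A. The highest of the latter stayed below the lowest of the former. The mean was 22.6 ± 0.602 CPM in si-NC and 13.6 ± 2.11 CPM in si-DYRK1A (n = 3 each), with a log2 fold change of -0.73 (SE 0.114, 95% interval 51.3% to 71.1% of the si-NC level, adjusted p = 0.000107 with edgeR).

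Myd88 (chromosome 8, 128022473 to 128026841, minus strand), the common adaptor of most Toll-like receptors, held 680, 919 and 754 counts against 645, 616 and 664. The libraries labelled si-DYRK1A lay close together, at 57.4 ± 0.642 CPM, below si-NC libraries that varied more, at 68.7 ± 7.92 CPM (n = 3 each). The log2 fold change was -0.26 (SE 0.0736, 95% interval 75.2% to 92.9% of the si-NC level, adjusted p = 0.0192 with edgeR). Replicate 2 of si-NC, the highest of the 6 at 77.7 CPM, carried part of this: without it the log2 fold change was -0.16 and the adjusted p = 0.134 with edgeR. An unannotated row with thiolase domains overlaps the start of Myd88 on the opposite strand (128026651 to 128038408), and since the use of strand in counting is not given in the sources used here, reads in the overlap cannot be assigned with certainty. That row held 131, 155 and 120 counts against 117, 124 and 129 (log2 fold change -0.11, adjusted p = 0.672 with edgeR).

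Mavs (chromosome 3, 123776181 to 123790567, plus strand), the mitochondrial adaptor of the cytosolic RNA sensors, held 485, 564 and 510 counts against 488, 447 and 494. Its lowest si-NC library, replicate 3 at 42.6 CPM, lay among the libraries labelled si-DYRK1A, which ranged from 42.1 to 42.9 CPM. The log2 fold change was -0.10 (SE 0.0727, 95% interval 84.1% to 104% of the si-NC level, adjusted p = 0.416 with edgeR). For Ticam1, RefSeq's order of genes places the gene between Plin3 and Fem1a, and in that interval of chromosome 9 the table has an unannotated row (10783251 to 10790278, plus strand) annotated with a RIP homotypic interaction motif, a motif that TRIF is known to carry. It was looked up after the missing row was seen and is not counted among the members. It held 79, 108 and 118 counts against 104, 97 and 110, with a log2 fold change of 0.06 (SE 0.15, adjusted p = 0.840 with edgeR) that turned to -0.037 without replicate 1 of si-NC.

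Downstream of the adaptors, Tbk1 fell and Irf3 did not pass the test. Tbk1 (chromosome 7, 63655247 to 63687978, minus strand), the kinase on which TRIF, MAVS and STING converge, held 297, 295 and 359 counts against 263, 210 and 254. Its scaled level was 27.8 ± 2.6 CPM in si-NC and 21.6 ± 1.71 CPM in si-DYRK1A (n = 3 each), without overlap. The log2 fold change was -0.36 (SE 0.0976, 95% interval 67.6% to 89.6% of the si-NC level, adjusted p = 0.0139 with edgeR). A second transcript on its strand (63655247 to 63669113), over 42.4% of the gene, held 80, 79 and 101 counts against 60, 57 and 92. In this row the groups overlapped through replicate 3 of si-DYRK1A, and the log2 fold change of -0.29 (SE 0.187) had an adjusted p = 0.342 with edgeR. Summed, both rows gave a log2 fold change of -0.35 (SE 0.0925, adjusted p = 0.0130 with edgeR). Irf3 (chromosome 1, 100992405 to 100997198, plus strand) shows how much the unannotated rows matter: its own row was at 0 in every library, and all its counts stood in an unannotated row of the same start and end, annotated as an interferon regulatory factor. That row held 346, 289 and 350 counts against 317, 304 and 319. The si-NC libraries, from 24.4 to 33.2 CPM, enclosed those labelled si-DYRK1A, from 27.6 to 28.6 CPM. The log2 fold change was -0.04 (SE 0.0992, 95% interval 84.1% to 112% of the si-NC level, adjusted p = 0.825 with edgeR), and it turned to 0.061 without replicate 1 of si-NC.

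Summed with their unannotated rows, 9 members could be followed as genes, 8 of them were tested, and the same 4 fell, with a median log2 fold change of -0.18. With 3 libraries against 3, an exact permutation test of one gene cannot give a p below 0.1, and each of the 4 reached this value. The p-values measure the spread between the labelled replicates only.

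**Figure D2:**
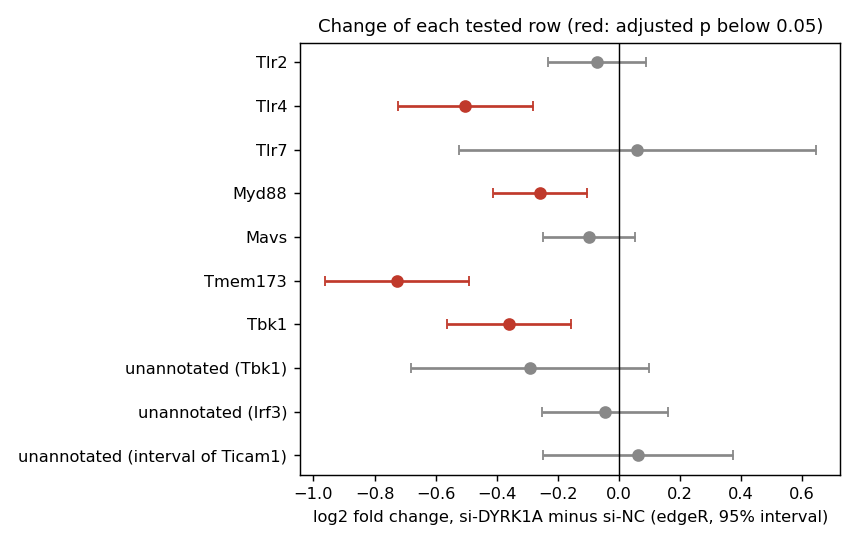
Log2 fold change (si-DYRK1A minus si-NC) of the 9 member rows tested and of the unannotated row in the interval of Ticam1. The 95% intervals were derived from the edgeR fit, and red marks an adjusted p below 0.05. The intervals of Tmem173, Tlr4, Tbk1 and Myd88 lie below 0, and the other 6 include 0.

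Compared per length, the adaptors Myd88 and Mavs had the highest levels of the set. In the FPKM values deposited by the authors, Myd88 led in si-NC with 27.8 ± 3.28, followed by Mavs with 15.1 ± 0.882 and Tlr2 with 14.3 ± 0.114 (n = 3 each). Then came Tmem173 with 11.01 ± 0.31, Tbk1 with 9.25 ± 0.848, the Irf3 transcript with 7.61 ± 1.13 and Tlr4 with 6.24 ± 0.514. Among rows with at least 100 counts in total, Tlr7 closed the order at 0.787 ± 0.301 FPKM, 35.3-fold below Myd88. Tlr3, left out of this order, was lower still, with si-NC means of 0.0398 FPKM for its row and 0.0677 FPKM for its unannotated row. The ranges of neighbours in this order over the si-NC libraries did not overlap, except for Mavs and Tlr2, Tbk1 and the Irf3 transcript, and the Irf3 transcript and Tlr4. In the libraries labelled si-DYRK1A, Tmem173 stood at 6.61 ± 1.02 FPKM, with a mean below those of the Irf3 transcript and Tbk1, although its range (5.54 to 7.56) overlapped theirs and in replicate 3 it was above both.

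**Figure D3:**
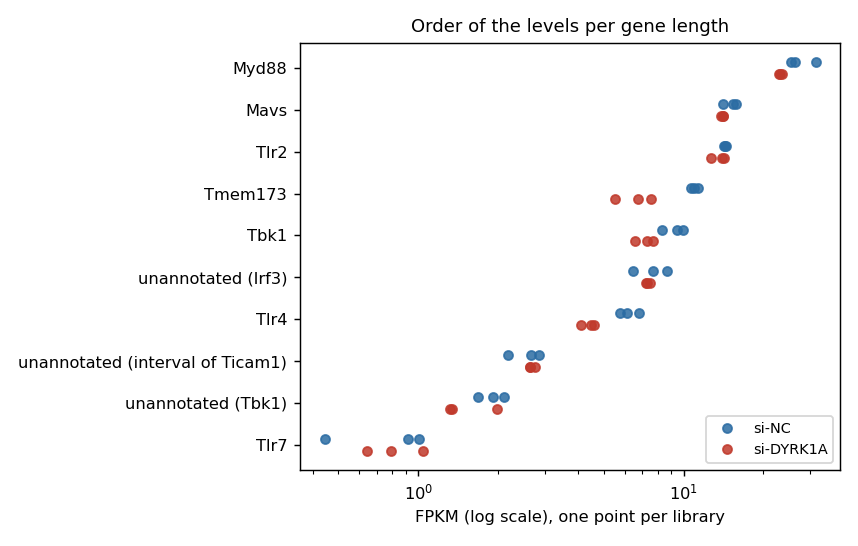
FPKM (log axis) of each member row with at least 100 counts in total and of the unannotated row in the interval of Ticam1, with one point per library, si-NC in blue and si-DYRK1A in red. Myd88 is the highest and Tlr7 the lowest, and the red points of Tmem173 lie to the left of its blue points.

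The 4 falls were not equally robust to the way the counts were treated. Tmem173 stayed below the threshold in all 17 alternatives, with log2 fold changes from -0.84 to -0.62 and adjusted p-values of at most 0.0371 (edgeR, DESeq2 or limma). For Tlr4 this held in 16 of 17, the exception being limma on unfiltered log2(FPKM + 1) with an adjusted p = 0.0569. Tbk1 lost its call in 6 of 17, namely in the 3 fits of FPKM and without replicate 2 of si-DYRK1A (adjusted p = 0.0871 with edgeR) or replicate 1 (0.0578) or 3 (0.0554) of si-NC. Myd88 lost it in 8 of 17, the 3 fits of FPKM, limma-voom (adjusted p = 0.0540), and without replicate 2 of si-NC or any one library labelled si-DYRK1A (0.0647 to 0.0705 with edgeR). In each of these the sign stayed negative.

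**Figure D4:**
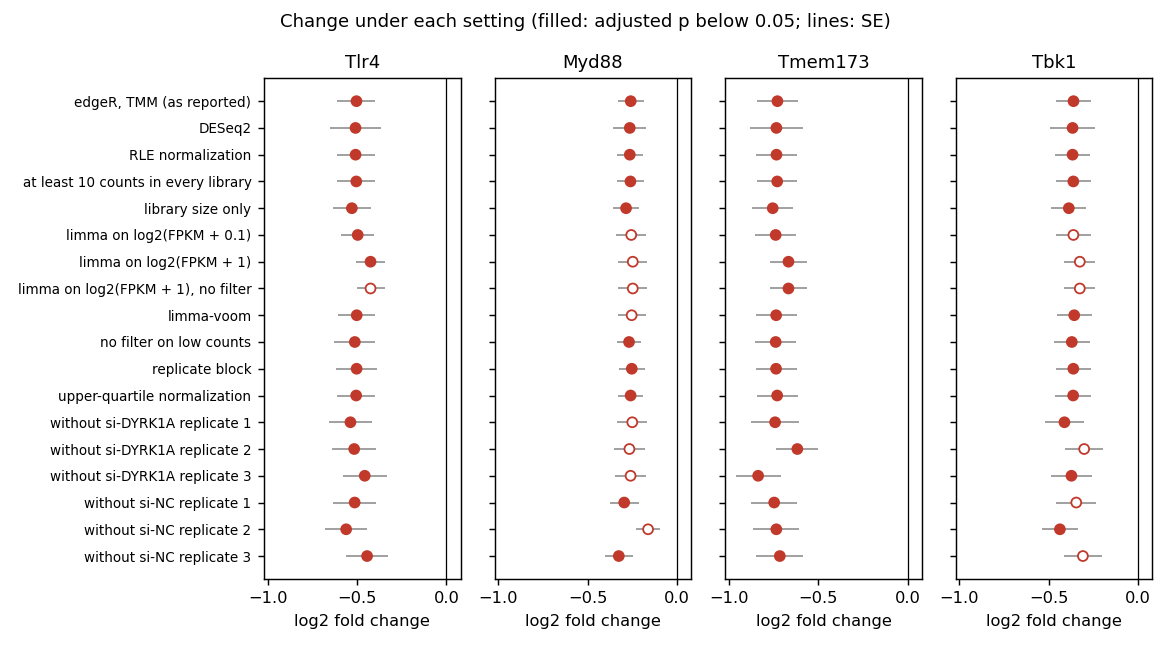
Log2 fold change (± SE) of the 4 fallen genes under each treatment of the counts, from the reported edgeR fit at the top to fits that leave out 1 library; filled points have an adjusted p below 0.05. All 17 alternatives of Tmem173 are filled, 1 of Tlr4, 6 of Tbk1 and 8 of Myd88 are open, and no point crosses 0.

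The genes whose levels followed each fallen member most closely over the 6 libraries were sought among the 8093 tested and annotated genes whose log2 CPM averaged 1 or more. For Tmem173 these were Man2a1 (Pearson's r = 0.997), Slc45a3 (0.996) and Mid1ip1 (0.994), and for Tlr4 they were Rab6a (0.997), Mfsd1 (0.990) and Atp6v1e1 (0.989). Tbk1 was followed by Nfu1 (0.997), Idh1 (0.992) and Riok3 (0.989). For Myd88 the closest were Sema6b (0.994), Tmem168 (0.992) and Rela (0.991), the last of which encodes the p65 subunit of NF-kB. Among the members themselves, r was 0.918 between Tbk1 and Tlr4, 0.907 between Tbk1 and Tmem173, and 0.865 between Tlr4 and Tmem173. Myd88 followed the others less closely, with 0.734 for Tmem173, 0.618 for Tlr4 and 0.452 for Tbk1. With 6 points that share the difference between the groups, these values describe the pattern only.

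The other genes of the pathway came from 16 lists of 221 symbols, of which 208 had a row. A low gene row is not the same as a low gene here: 95 of the 208 were overlapped by an unannotated row on their strand, and 66 of these had under 10 counts in every library, against 19 of the 113 without such a row.

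Among the genes of cytosolic RNA sensing, Ifih1 and several members of the oligoadenylate synthetase family were higher. Of 10 tested rows for cytosolic RNA sensors and their effectors, 6 were higher in si-DYRK1A and 0 lower (edgeR; 7 and 0 at an unadjusted p under 0.05, 6 and 0 with DESeq2), with a median log2 fold change of 0.71. Over all rows tested, 8.03% were called higher and 7.19% lower. Ifih1, which encodes the RNA sensor MDA5 upstream of Mavs, held 433, 555 and 501 counts against 902, 684 and 692 (log2 fold change 0.64, SE 0.0959, adjusted p = 0.000368 with edgeR). In the family of the 2'-5'-oligoadenylate synthetases, whose active enzymes are switched on by double-stranded RNA and activate RNase L, and which includes synthetase-like proteins, Oas1g rose by 1.94, Oas1a by 1.84, Oas1b by 1.01, Oasl2 by 0.96 and Oasl by 0.70 on the log2 scale. Oas1a held 21, 23 and 17 counts against 96, 64 and 55. These genes are close paralogs, so that the split of reads among them is uncertain. The rows of Ddx58 (RIG-I) and Dhx58 (LGP2) were at 0 in every library. Adar, an RNA-editing enzyme induced by interferon whose own row was also at 0, rose when summed with its unannotated row (log2 fold change 0.38, adjusted p = 0.0001 with edgeR).

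Among 8 tested rows for DNA sensors and nucleases, 1 was higher and 1 lower, where 8.03% of all rows tested were called higher and 7.19% lower. The 8 rows had a median log2 fold change of -0.10. The row called higher was Mb21d1, which encodes cGAS, the enzyme directly upstream of STING. It held 99, 147 and 124 counts against 205, 144 and 158 (log2 fold change 0.49, SE 0.14, adjusted p = 0.0213 with edgeR). Scaled to depth its groups did not overlap, with at most 12.4 CPM in si-NC and at least 13.6 CPM in si-DYRK1A, but its call was absent with DESeq2 and limma-voom. Thus the row of the sensor was higher and that of its adaptor Tmem173 lower in the same libraries. The row called lower was Dnase2, the lysosomal DNase, which fell by 0.32 on the log2 scale (SE 0.0844, adjusted p = 0.0120 with edgeR). Of the other Toll-like receptors only Tlr6 (log2 fold change -0.36, adjusted p = 0.307 with edgeR) and Tlr8 (0.24, adjusted p = 0.585) had enough counts to test, and calls numbered 0 with edgeR, at an unadjusted p under 0.05 and with DESeq2. Of 3 tested co-receptor and trafficking genes, Lbp, which hands lipopolysaccharide to the Tlr4 complex, fell by 0.20 on the log2 scale (adjusted p = 0.0419 with edgeR). That call was absent with DESeq2, limma-voom and limma on log2(FPKM + 1), and without any one library labelled si-DYRK1A or replicate 1 of si-NC.

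For the steps between the adaptors and the nucleus, the counts of calls stand beside 15.2% called in either direction over all rows tested. Of 13 tested signalling rows below the Toll-like receptors, 2 were higher: Sarm1, a TIR-domain protein that can inhibit TRIF, with 23, 38 and 32 counts against 67, 51 and 65 (log2 fold change 1.00, SE 0.22, adjusted p = 0.00289 with edgeR), and the ubiquitin ligase Peli1 (0.39, SE 0.0675, adjusted p = 0.000318 with edgeR). Rows called lower numbered 0 (1 at an unadjusted p under 0.05, 0 with DESeq2). Of 7 tested rows for TBK1 and IRF signalling, 0 were called with edgeR, DESeq2 or limma-voom, and 1 was lower at an unadjusted p under 0.05 with edgeR. Nor was any of 5 tested NF-kB subunits and inhibitors called with these tools, while 3 were lower at an unadjusted p under 0.05 with edgeR. When summed with unannotated rows, 10 NF-kB genes were tested and Nfkb1 was higher (0.56, adjusted p = 0.0208 with edgeR). The machinery of siRNAs and microRNAs, with 9 tested rows such as the Argonaute gene Ago1 (log2 fold change -0.03) and Xpo5 (0.04), which exports microRNA precursors from the nucleus, had 0 calls with edgeR, at an unadjusted p under 0.05 and with DESeq2. Ago2, the Argonaute that cuts the target of an siRNA, could be tested only when summed with its unannotated row (-0.10, adjusted p = 0.223 with edgeR).

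At the output of the pathway, interferon-stimulated genes were higher while the interferon genes were nearly silent. Of 15 tested rows of interferon-stimulated genes, 12 were higher and 0 lower (edgeR; 14 and 0 at an unadjusted p under 0.05, 11 and 0 with DESeq2), with a median log2 fold change of 0.99. Usp18 rose by 1.64, Isg15 by 1.29, Cxcl10 by 1.20, Rsad2 by 1.08, Ifit3 by 1.05 and Herc6 by 1.03 on the log2 scale. Ifnb1 held 2, 0 and 0 counts against 1, 1 and 0, and of 5 tested rows for interferons, receptors and their signal, Stat2 was higher (log2 fold change 0.46, adjusted p = 0.00731 with edgeR). The receptor chains Ifnlr1 (-0.36, adjusted p = 0.00815 with edgeR) and Ifngr2 (-0.20, adjusted p = 0.0180) were lower. Of 12 tested inflammatory genes that Toll-like receptors are known to induce, Il6 rose by 0.82, Ptgs2 by 0.48 and Ccl7 by 0.32 on the log2 scale, and Icam1 fell by 0.50. The rows of Tlr4 and Myd88 were lower in the same libraries. Of that list 3 genes were higher, 1 lower and 8 not called, where 8.03% of all rows tested were called higher and 7.19% lower.

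**Figure D5:**
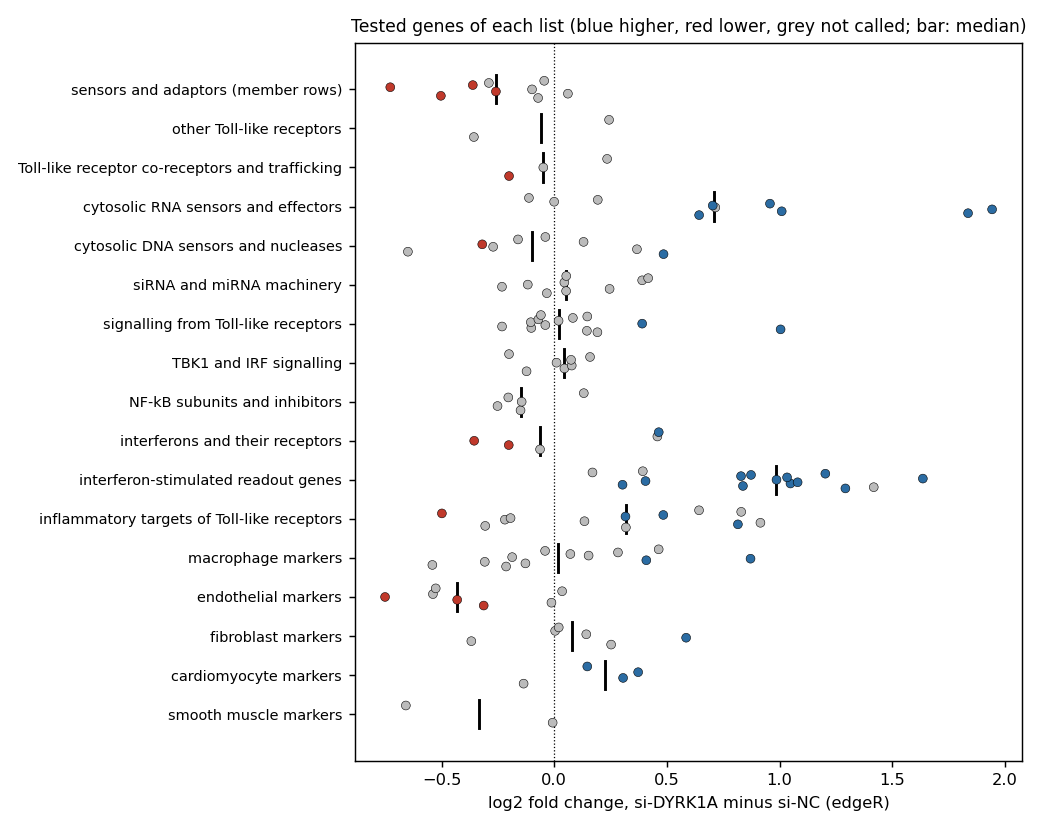
Log2 fold change (si-DYRK1A minus si-NC, edgeR) of each tested row, 1 line per list, with the sensors and adaptors described here at the top; blue rows were called higher, red rows lower and grey rows neither, and the bar is the median. The member rows lie mostly left of 0 (median -0.26), and the cytosolic RNA sensors (0.71) and interferon-stimulated genes (0.99) mostly right of it.

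Several members are known from cells other than cardiomyocytes, and some markers of 1 such cell type were also lower. Of 7 tested endothelial markers, 3 fell and 0 rose (edgeR; 4 and 0 at an unadjusted p under 0.05, 3 and 0 with DESeq2), with a median log2 fold change of -0.43. Over all rows tested, 7.19% were called lower and 8.03% higher. Tek fell by 0.75, Tie1 by 0.43 and Cdh5 by 0.31 on the log2 scale. Kdr (log2 fold change -0.01) and Emcn (0.03) were not called. Vwf (-0.53, adjusted p = 0.0719 with edgeR) and Egfl7 (-0.54, adjusted p = 0.394) were lower in value but not called either, and Pecam1 had no row. The Eng row held at most 1 count, and an unannotated row that overlaps it, outside this list, held 80 to 136 counts per library. The summed level of the 8 rows on this list was 171 to 190 CPM in si-NC and 139 to 144 CPM in the libraries labelled si-DYRK1A. STING is known to be abundant in endothelial cells, and the part of these cells in the values of Tmem173 and Tlr4 was not tested.

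Macrophage markers did not move as one. Of 12 tested, Cd163 (0.87, adjusted p = 0.00415 with edgeR) and Lyz2 (0.41, adjusted p = 0.000178) were higher and 0 were lower (3 at an unadjusted p under 0.05, 0 with DESeq2). Over all rows tested, 8.03% were called higher and 7.19% lower. The 12 had a median log2 fold change of 0.02, and 6 of them had a negative one. The summed level of the list was 347 to 365 CPM in si-NC and 353 to 397 CPM in si-DYRK1A. Lyz2 alone held 88.8 ± 5.13 CPM of this sum in si-NC and 118 ± 10.6 CPM in si-DYRK1A (n = 3 each). The rows of Cd68 and Spi1 were at 0 in every library, Ptprc, the general leukocyte marker, had a log2 fold change of -0.21 (adjusted p = 0.124 with edgeR), and Adgre1 one of -0.54 (adjusted p = 0.168). Of 4 tested cardiomyocyte markers, Nppa (0.37), Actn2 (0.31) and Pln (0.15) were higher on the log2 scale and Tnnt2 was not called (-0.14). The groups of Pln overlapped, and its call was absent with DESeq2, limma-voom and limma on log2(FPKM + 1). Of 6 fibroblast markers Lum was higher (0.59), Dcn was not called (0.25), and Col1a1, with a log2 fold change of -0.37, was called lower with DESeq2 and limma-voom but not with edgeR (adjusted p = 0.0869). Summed with its unannotated row, Dcn was higher (0.44, adjusted p = 0.0397 with edgeR). The Pdgfra row was at 0 in every library, and an unannotated row that overlaps it held 93 to 120 counts. Both tested smooth muscle markers, Cnn1 (-0.01) and Tagln (-0.66), were not called with edgeR, and 1 was lower at an unadjusted p under 0.05. The rows of Myh11 and Acta2 were at 0 in every library. An unannotated row that overlaps Myh11 held 2 to 7 counts, and one that overlaps Acta2 held 0. Rgs5 of the same list, tested only when summed with its unannotated row, was higher (0.56, adjusted p = 1.19e-05 with edgeR). The part of any of these cells in the values of the sensors and adaptors was not tested.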

How the data were processed

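RNA-seq libraries of rat neonatal cardiomyocytes were grouped by their labels, 3 si-NC and 3 si-DYRK1A, all used. Per the methods of the study, HISAT2 2.0.5 aligned the read pairs to Rnor_6.0, and the authors deposited raw counts per gene without normalization. The authors also deposited FPKM values, which equal count divided by listed length times 1 constant per library. This held within 0.1% for all values checked, and rows with low counts in a library were not checked. The submitters' processing notes list Bowtie 0.12.2 and a mouse build, which the rat coordinates contradict. How reads were counted (tool, annotation release, strand) is not given in the sources used here. Coordinates are those of the files (Rnor_6.0), and promoters are from RefSeq (GRCr8).

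Counts were tested with edgeR 4.0.16 (R 4.3.3; TMM, robust quasi-likelihood fit, filterByExpr with a minimum count of 10) over 15513 rows, with two-sided p-values adjusted by the Benjamini-Hochberg method and a threshold of 0.05. Alternatives used DESeq2 1.42.0, limma 3.58.1 (voom, and log2 FPKM with a pseudocount of 1 or 0.1 and FPKM above 0.5 in at least 3 libraries), other scalings, other filters, each library left out and the replicate number as a block. Scripts were tested on simulated data. Sums of list genes with unannotated rows, and the row in the interval of Ticam1, were added after seeing the data. Named were the members and their unannotated rows, Dyrk1a, called list genes (up to 6 per list and direction, by size of change), the first 3 markers per cell type and the 3 genes most correlated with each called member. List genes named without a call, other than these markers, were chosen after their values were seen. The members and lists were chosen with earlier results of these data known.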

Additional observations from a re-analysis of the deposited data

How the results depend on the processing

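The number of rows called, 2360, moved by over 1.5 times in 3 of 17 alternatives, to 1197 and 1162 with limma on log2(FPKM + 1) and log2(FPKM + 0.1) and to 667 with the former unfiltered. In these 3, member rows called numbered 2, 2 and 1, and member genes summed with unannotated rows also 2, 2 and 1, in place of 4. At an adjusted p below 0.01 both counts were 2 (Tmem173 and Tlr4), and where the log2 fold change also had to reach 1 in size, both were 0, by construction of a stricter rule, since the largest change was -0.73. Leaving out 1 library gave 1614 to 2210 rows and 2 to 3 members, with 2 without replicate 2 of si-DYRK1A. DESeq2 called 1699 rows and 4 members, and the median log2 fold change of all rows, 0.002, was furthest from that value under library size only, at -0.024. The replicate numbers do not pair the samples by any label, and deviations of same-numbered libraries correlated at 0.058, -0.026 and -0.0041; with the replicate number as a block, 2269 rows and 4 member rows were called, and among list genes the calls of Lbp (adjusted p = 0.0567 with edgeR) and Pln (0.0699) were lost and those of Col1a1 (0.00353) and Vwf (0.0423) gained, both lower. Signs turned only for uncalled values: Tlr7 (-0.14 without replicate 2 of si-DYRK1A, -0.21 without replicate 1 of si-NC), Irf3 (0.061) and the row in the interval of Ticam1 (-0.037), both without replicate 1 of si-NC; over the 6 libraries left out in turn these ran from -0.21 to 0.27, from -0.16 to 0.061 and from -0.037 to 0.14. Among the 16 lists, 43 of 288 counts of calls under alternatives moved by over 1.5 times. On FPKM, calls of DNA sensors and of interferons and their receptors came to 0. The cause of these shifts was not tested. Depth limits Tlr3 and Tlr7 most, and the Irf3 row, at 0 under an unannotated row, gives no measure of its own.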
